A study of Homo sapiens with 4 samples.

Results

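The pregnancy-specific glycoprotein (PSG) genes PSG1, PSG2, PSG3, PSG4, PSG5, PSG6, PSG7, PSG8, PSG9 and PSG11 were examined in RNA-seq libraries of MCF10A cells, a non-tumorigenic human breast epithelial line. These 10 genes, of 63856 in the count table, were taken by symbol and Ensembl identifier, and they were chosen because their summed level fell about 100-fold between the groups described here. The fall itself is therefore given as a description, with no test. The 2 groups were unmodified (WT) cells and cells with stable HSF1 overexpression (HSF1-pLVX), with 2 libraries each. HSF1 is the master transcription factor of the heat shock response. HSF1-pLVX cells had been transduced with a lentivirus carrying HSF1 cDNA in the pLVX vector and selected in puromycin, and no isolation of single clones is described. Per the labels, both groups were grown in the same DMEM/F12 medium with horse serum, insulin, hydrocortisone, EGF and cholera toxin. Cells with the empty vector were not analysed here, so the vector, the selection and HSF1 cannot be told apart.

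PSG proteins are secreted glycoproteins built of immunoglobulin domains. They form a branch of the carcinoembryonic antigen family, and their genes lie next to CEACAM genes on chromosome 19. They are known above all from the syncytiotrophoblast of the placenta, which releases them into maternal blood in large amounts during pregnancy. The best studied member, PSG1, is known to bind and activate latent TGF-β and to bind integrins and cell surface proteoglycans. The core promoter of PSG5 is known as the element from which the zinc finger factor KLF6 was isolated. The members are close copies of each other, in their promoters as well as in their exons.

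That likeness can be read directly in the sequence before the transcription start. RefSeq promoters of 3 of the 10 genes were at hand (GRCh38.p14), and the 250 bases upstream of each start site are shown because they set 2 members with high levels in WT cells, PSG4 and PSG5, beside a member at the limit of detection, PSG3. All are on the minus strand of chromosome 19, PSG3 at chr19:42740482-42740731, PSG5 at chr19:43186537-43186786 and PSG4 at chr19:43205639-43205888. The RefSeq start sites of PSG3 and PSG4 lie inside the spans that GENCODE gives for these genes. Capitals mark the matches to the motifs searched.
PSG3: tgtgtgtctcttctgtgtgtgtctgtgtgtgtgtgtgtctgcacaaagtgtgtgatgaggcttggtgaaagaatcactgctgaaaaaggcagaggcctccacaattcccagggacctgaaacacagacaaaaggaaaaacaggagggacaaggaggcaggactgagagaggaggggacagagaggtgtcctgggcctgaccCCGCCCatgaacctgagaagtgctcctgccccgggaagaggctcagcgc
PSG5: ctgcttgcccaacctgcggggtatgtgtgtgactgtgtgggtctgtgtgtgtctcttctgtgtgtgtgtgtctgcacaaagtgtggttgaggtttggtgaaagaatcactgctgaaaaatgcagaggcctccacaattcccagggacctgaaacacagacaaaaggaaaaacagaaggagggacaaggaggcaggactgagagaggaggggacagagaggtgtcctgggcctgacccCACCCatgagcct
PSG4: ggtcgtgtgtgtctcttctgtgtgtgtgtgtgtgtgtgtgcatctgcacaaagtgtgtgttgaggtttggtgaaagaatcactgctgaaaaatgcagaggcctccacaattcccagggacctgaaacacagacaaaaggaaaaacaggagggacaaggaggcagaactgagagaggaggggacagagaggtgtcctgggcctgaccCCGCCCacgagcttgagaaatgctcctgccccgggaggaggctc

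In global alignments without penalty for end gaps, PSG4 and PSG5 were identical at 98.1% of 207 aligned bases. PSG3 and PSG5 were identical at 96.3% of 214, and PSG3 and PSG4 at 95.1% of 245. Gaps, also those inside the alignment, are left out of these shares. On both strands, 7 motifs were searched. The GC box GGGCGG, here read on the opposite strand as CCGCCC, was matched in PSG3 from position -49 and in PSG4 from position -44 relative to the start site. PSG5 has no GC box in its window and has the CACCC box, from position -13. The GC box was found in 42.6% and the CACCC box in 54.7% of all 35116 RefSeq promoter windows of this length. The heat shock element, the site HSF1 binds, was searched as GAANNTTC, as TTCNNGAA, and as both joined through their shared TTC, so that these motifs overlap. They were not matched in the 3 PSG windows, against 5.78%, 6.62% and 0.441% of all windows. The TATA box TATAAA (10.7% of all windows) and the ETS motif CCGGAAG (8.52%) were not matched either. These matches describe letters in the windows only.

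The libraries held between 18688109 and 24184285 counts, and 15830 genes passed the filter on low counts. Levels are given in CPM, counts scaled by library size after TMM normalization. Fitted log2 fold changes (log2FC) are given ± an approximate standard error (SE). This SE is the size of the log2FC divided by the square root of the F statistic of edgeR's test. It is thus derived from the test and was not estimated on its own, which matters most at low counts. The p-values were adjusted after Benjamini and Hochberg over all tested genes. They are those of edgeR's quasi-likelihood test unless another test is named. HSF1 itself was 200.4 and 189.2 CPM in the WT libraries and 982.4 and 998.6 CPM in the HSF1-pLVX libraries, with a log2FC of 2.35 ± 0.148 (edgeR adjusted p = 5.77e-55). The counts do not separate the introduced transcript from the endogenous one. Of 10 mammary epithelial markers all 10 were detected in both groups. KRT5 and TP63 rose, ITGB4 did not pass the test, and the other 7, among them KRT8, KRT14 and EPCAM, fell. So 70.0% fell and 20.0% rose, against 32.7 and 32.5% of all tested genes. The summed level of the 10 markers went from 23300 to 23890 CPM in WT libraries to 11020 to 11320 CPM in HSF1-pLVX libraries. Whether this shift plays a part in the PSG result was not tested. In these bulk samples fewer cells with PSG transcripts and fewer transcripts per cell cannot be told apart. The libraries are called biological replicates by the study, but no source used here says that they came from separate transductions, so p-values measure only the spread between these libraries, which may be technical.

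WT cells carried a sizeable amount of PSG RNA. Summed over the 10 genes, the WT libraries held 4976 and 4766 counts, or 265.1 and 256.5 CPM, and the HSF1-pLVX libraries held 64 and 47 counts, or 2.549 and 2.366 CPM. The groups lay far apart and the libraries within a group close together. The means were 260.8 ± 6.06 CPM in WT and 2.458 ± 0.1297 CPM in HSF1-pLVX cells (SD, n = 2 each). The summed level in HSF1-pLVX cells was 0.946% of that in WT cells, with a 95% exact binomial interval from 0.778 to 1.14% that covers counting error only, which makes it 106-fold lower. Taken within replicate number, the share was 0.962% in replicate 1 and 0.922% in replicate 2. Without PSG4, the most abundant member, the other 9 genes were at 0.284% of the WT level (0.151 to 0.486%). This value differed between the HSF1-pLVX libraries, which held 10 and 3 of these counts, and was 0.394% in replicate 1 and 0.147% in replicate 2.

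**Figure D1:**
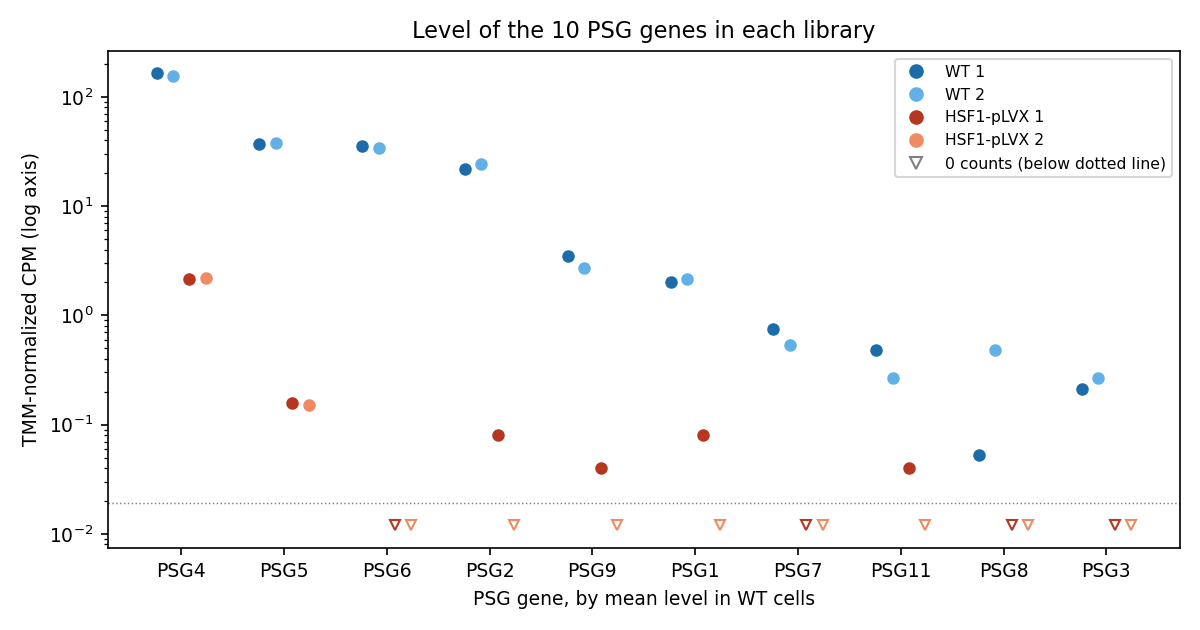
TMM-normalized CPM (log axis) of the 10 PSG genes in the 4 libraries, 1 point a library, ordered by mean level in WT cells, with open triangles below the dotted line for libraries with 0 counts. In HSF1-pLVX cells PSG4 and PSG5 are the members with counts in both libraries.

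PSG4 (ENSG00000243137.7, chromosome 19 of hg38, 43192702 to 43207299) was the leading member in both groups. It had 3076 and 2861 counts (163.9 and 154.0 CPM) in the WT libraries and 54 and 44 counts (2.151 and 2.215 CPM) in the HSF1-pLVX libraries. The level in HSF1-pLVX cells was 1.37% of that in WT cells (interval 1.11 to 1.67%), or 72.9-fold lower. The fitted log2FC was -6.19 ± 0.148, and 47 of the 15830 tested genes (0.297%), PSG members included, were at or below it. The family was picked on this contrast, so this rank is a description and no test.

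PSG5 (ENSG00000204941.13, 43166256 to 43186536), whose promoter window is shown above, had 691 and 698 counts (36.81 and 37.57 CPM) in WT libraries and 4 and 3 counts (0.1593 and 0.151 CPM) in HSF1-pLVX libraries. It was at 0.419% of the WT level (0.168 to 0.865%). PSG5 and PSG4 were thus the members still detected in both HSF1-pLVX libraries.

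PSG6 (ENSG00000170848.15, 42902079 to 42919563) had 666 and 634 counts (35.48 and 34.12 CPM) in WT libraries and 0 counts in both HSF1-pLVX libraries. Against a floor of 3 counts per library it was at least 257-fold lower. In WT cells its CPM was close to that of PSG5, and in HSF1-pLVX cells no read of it was counted. Among all tested genes, 23 (0.145%) had 0 counts in both HSF1-pLVX libraries, PSG6 and PSG7 included. These members passed the filter through their WT counts, so nothing is read from this share.

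PSG2 (ENSG00000242221.8, 43064211 to 43083045) had 411 and 454 counts (21.89 and 24.43 CPM) in WT libraries, and in HSF1-pLVX libraries 2 and 0 counts. It was at 0.192% of the WT level, with a counting interval from 0.0232 to 0.696%. The interval of PSG2 lies below that of PSG4, while those of PSG2 and PSG5 overlap.

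The other 6 members were at low levels already in WT cells. PSG9 (ENSG00000183668.17), known from colorectal tumors as well as from placenta, had 66 and 50 counts in WT libraries and 1 and 0 in HSF1-pLVX libraries, or 0.716% of the WT level (0.018 to 4.07%). PSG1 (ENSG00000231924.9) had 38 and 40 counts against 2 and 0, or 2.13% (0.253 to 7.96%). For both, the interval includes the value of the summed family. PSG7 (ENSG00000221878.12) had 14 and 10 counts in WT libraries and 0 in both HSF1-pLVX libraries, at least 4.75-fold lower against the floor. PSG11 (ENSG00000243130.7) had 9 and 5 counts against 1 and 0, or 5.93% of the WT level with an interval from 0.14 to 39%. PSG8 (ENSG00000124467.18) had 1 and 9 counts and PSG3 (ENSG00000221826.9) 4 and 5 counts in WT libraries, with 0 in both HSF1-pLVX libraries. Their bounds were at least 1.99-fold and at least 1.78-fold lower, so that depth limits what can be said of these genes.

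The filter on low counts was passed by 7 members and not by PSG3, PSG8 and PSG11. The 7 lay past the limits of a 2-fold lower level and an adjusted p of 0.05, as did 14.0% of all tested genes, but the family was picked on this contrast and members passed the filter through WT cells, so the count is no test and nothing is read from it. Without a fold limit 32.7% of tested genes were lower and 32.5% higher, or 33.2 and 32.7% without the replicate block, and in DESeq2's Wald test 23.6 and 21.0%.

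The authors' normalized table gives the same genes on a log2-like scale whose lowest value, 3.118, stands for 0 counts. On it, PSG4 was 11.74 and 11.61 in WT libraries and 5.89 and 5.92 in HSF1-pLVX libraries. PSG1 was 5.86 and 5.9 in WT libraries and 3.73 and 3.12 in HSF1-pLVX libraries. The floor compresses the difference where the WT level is low: 2 raised to the difference within replicate number was 0.0173 and 0.0193 for PSG4, and 0.229 and 0.145 for PSG1, whose counts gave a ratio of 2.13%. By the study's limit, a ratio below 0.50 in both replicates, 9 of the 10 members were down-regulated, against 6.42% of the 22321 rows of that table. PSG8 missed it, with ratios of 0.701 and 0.361. PSG3 lay just inside, with ratios of 0.497 and 0.462. On TMM-normalized CPM + 0.5 the same limit was passed by 7 members, but the share of all genes past it on this scale was not computed. The family was picked on this contrast, so neither count is a test and nothing is read from them.

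The make-up of the PSG counts differed between the groups in these libraries. In WT cells PSG4 held 61.8 and 60.0% of the PSG counts, PSG5 13.9 and 14.6%, PSG6 13.4 and 13.3%, and PSG2 8.26 and 9.53%. The order of these 4 shares was the same in both WT libraries. In HSF1-pLVX cells PSG4 held 84.4 and 93.6%, and PSG5 6.25 and 6.38%. Pooled over the 2 libraries of a group, PSG4 made up 60.9% of 9742 counts in WT cells (exact binomial interval 60.0 to 61.9%) and 88.3% of 111 counts in HSF1-pLVX cells (80.8 to 93.6%).

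At the WT shares, the 111 counts of HSF1-pLVX cells would hold 67.6 counts of PSG4, 15.8 of PSG5, 14.8 of PSG6 and 9.86 of PSG2, where 98, 7, 0 and 2 were counted. The 0 of 111 counts of PSG6 allow a share of up to 2.7% by a floor of 3 counts over both libraries, or 3.27% by the exact binomial interval, where WT cells had 13.3%. The counts of PSG1, PSG2, PSG9 and PSG11 in HSF1-pLVX cells, 6 in all, came from replicate 1 alone. These shares come from the contrast on which the family was picked and were not tested.

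**Figure D2:**
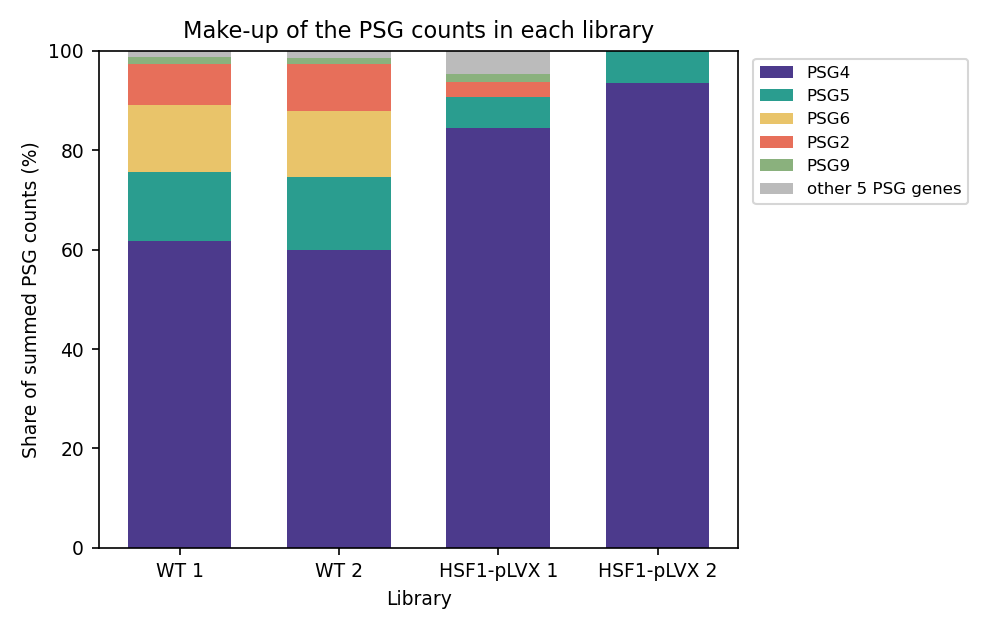
Share of each PSG gene in the summed PSG counts of a library (%), as stacked bars, 1 bar a library, with the 5 least abundant genes together. PSG4 takes 61.8 and 60.0% in the WT libraries and 84.4 and 93.6% in the HSF1-pLVX libraries, while the PSG6 layer is absent from the latter.

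In WT cells the members spanned a wide range of levels. Compared per length, as CPM per kb of counted exon, PSG4 was highest with 26.12 and 24.54. It stood above the level of 89.3% of tested genes. PSG2 followed with 7.825 and 8.733, PSG5 with 7.869 and 8.031 and PSG6 with 6.903 and 6.639, and the ranges of PSG2 and PSG5 overlapped. These 4 genes were above 66.0% or more of tested genes in WT cells. A gap of 11.0-fold separated PSG6 from PSG9, at 0.6965 and 0.5331. Next came PSG1 with 0.4081 and 0.434, and PSG7 with 0.1555 and 0.1122. At the bottom, PSG11, PSG3 and PSG8 had means between 0.06573 and 0.07438 CPM per kb with overlapping ranges. PSG3 and PSG4, whose promoter windows were identical at 95.1% of aligned bases, stood near opposite ends of the order. Their means were 0.06916 and 25.33 CPM per kb. With 2 libraries no test of this order was made.

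By position, the high members were not a single block. The 10 genes span 548 kb of chromosome 19, from 42721638 to 43269530 of hg38, all on the minus strand. From the start of that span the order is PSG3, PSG8, PSG1, PSG6, PSG7, PSG11, PSG2, PSG5, PSG4 and PSG9. PSG6 lies between PSG1 and PSG7, both lower per kb in WT cells, and PSG7 and PSG11 separate it from PSG2. PSG2, PSG5 and PSG4, the highest members per kb in WT cells, follow each other directly among the members, and PSG6 lies apart from them.

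**Figure D3:**
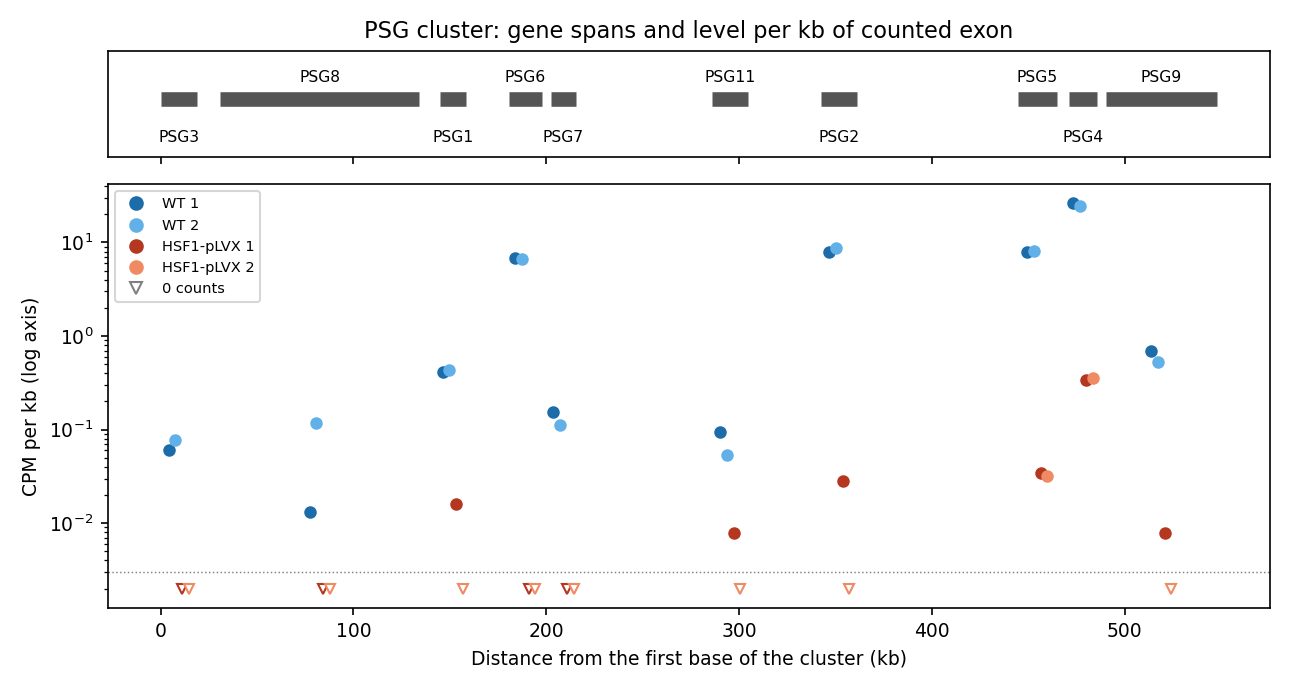
Upper panel, spans of the 10 PSG genes as distance from the first base of the cluster (kb). Lower panel, CPM per kb of counted exon (log axis) at the middle of each gene in the 4 libraries, with open triangles for 0 counts. PSG6, PSG2, PSG5 and PSG4 stand out in WT cells, with PSG7 and PSG11 at low levels between PSG6 and PSG2.

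Because the genes are near copies, reads could be lost or split between them. Of the 76-base windows of counted exon, the read length of the study, between 12.9% (PSG7) and 26.2% (PSG8) also occurred elsewhere on chromosome 19 without mismatch. For PSG4 it was 16.1%, for PSG5 13.7%, for PSG6 16.2% and for PSG2 20.9%. So between 73.8 and 87.1% of the windows of each member occurred once on this chromosome. The largest overlap with a single other member was that of PSG8 with PSG1, 8.5% of the windows of PSG8. The handling of reads with several matches is not given in the sources used here, and the single values of these paralogs are uncertain to that extent. Overlapping annotation adds to this: 13.6% of the counted exon bases of PSG9 also belong to the pseudogene CEACAMP10 and 3.33% of those of PSG8 to the pseudogene PSG10P. For PSG5, 11.1% lie opposite exons of PSG11-AS1.

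Between the outermost members lie 9 further loci, antisense transcripts and pseudogenes, with 39 and 48 counts in all in WT libraries and 2 and 2 in HSF1-pLVX libraries. PSG11-AS1 (42977463 to 43171515, plus strand) had 10 and 16 counts against 2 and 2, and was the only one of the 9 that passed the filter. Its log2FC was -2.85 ± 0.679 (edgeR adjusted p = 6.72e-05), and its adjusted p was 0.0687 in DESeq2's Wald test. Strand use in the counting is not given, so in the shared exon bases its reads cannot be told apart from those of PSG5. PSG8-AS1 had 10 and 7 counts and PSG10P 4 and 3 in WT libraries, and both had 0 in HSF1-pLVX libraries.

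Whether the fall reached the genes on either side was examined next, in genes that did not enter the choice of the family. Of 53 tested genes that lie within 1 Mb of the members and are not members, 15 fell and 14 rose at an adjusted p of 0.05 in edgeR, or 28.3 and 26.4%. In DESeq2's Wald test 9 fell and 11 rose. Over all tested genes 32.7% fell and 32.5% rose. Their median log2 fold change was -0.18, against 0.02 over all tested genes. Within 0.5 Mb, 12 of 28 fell and 4 rose, or 42.9 and 14.3%. Both windows count PSG11-AS1, which lies between the members and fell. Of the 53 genes, those on the side of PSG3 were 22, of which 6 fell and 7 rose in edgeR (27.3 and 31.8%). On the side of PSG9 8 of 30 fell and 7 rose (26.7 and 23.3%).

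On the side of PSG3, the nearest tested genes did not pass the test. LIPE-AS1, 69283 bases away, had 7 and 12 counts in WT and 10 and 13 in HSF1-pLVX libraries (edgeR adjusted p = 0.937). CEACAM1, a cell adhesion receptor of the same family, 160404 bases away, was 25.14 and 23.9 CPM in WT and 27.36 and 25.07 CPM in HSF1-pLVX libraries. Its log2FC was 0.10 ± 0.118 (edgeR adjusted p = 0.484). The unnamed locus ENSG00000269374 had 18 and 9 counts against 16 and 5 (edgeR adjusted p = 0.206).

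On the side of PSG9, the nearest tested gene fell steeply. CD177, which encodes a surface glycoprotein of neutrophils and lies 84129 bases from PSG9, had 32 and 17 counts in WT libraries and 1 and 0 in HSF1-pLVX libraries. Its log2FC was -5.60 ± 0.767 (edgeR adjusted p = 1.58e-12), and its level was 1.7% of that in WT cells, with a counting interval from 0.0421 to 9.9%. Over the alternatives its adjusted p reached 0.0209. Beyond it, LYPD3 fell, with a log2FC of -0.61 ± 0.113 (edgeR adjusted p = 2.72e-07), and PHLDB3 rose, with 0.51 ± 0.131 (edgeR adjusted p = 0.000202). In DESeq2's Wald test the adjusted p of PHLDB3 was 0.0526.

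**Figure D4:**
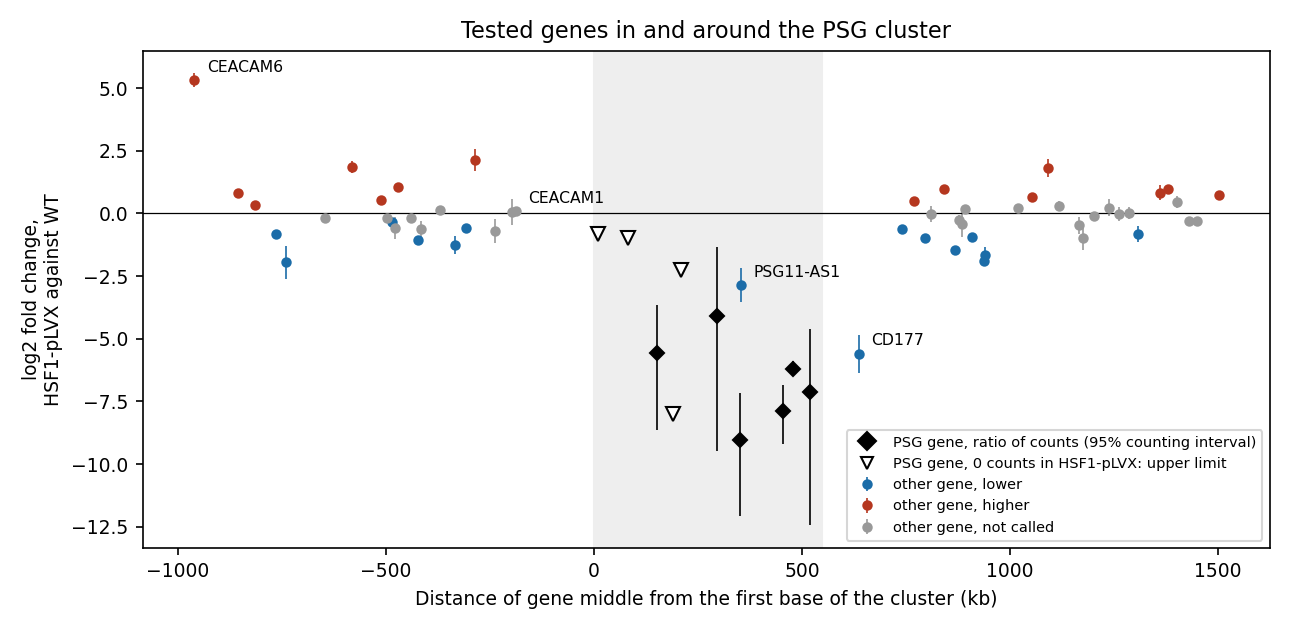
log2 fold change of HSF1-pLVX against WT cells for tested genes within 1 Mb of the PSG cluster (shaded), by distance of the gene's middle from the first base of the cluster. Circles show fitted values with the approximate SE derived from the test. Black diamonds show the ratio of counts of PSG genes with its 95% counting interval, and open triangles the upper limit where HSF1-pLVX cells had 0 counts. CEACAM1 at 0.10 and CD177 at -5.60 flank the cluster.

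The CEACAM genes are the closest relatives of the PSG genes. Of 12 listed, 3 passed the filter. CEACAM6, a surface adhesion protein, rose from 0.3196 and 0.3767 CPM in WT to 15.18 and 12.94 CPM in HSF1-pLVX libraries, with a log2FC of 5.31 ± 0.28 (edgeR adjusted p = 1.33e-77). CEACAM19 rose less, with 0.44 ± 0.119 (edgeR adjusted p = 0.000476), and no longer passed in DESeq2's Wald test, and CEACAM1 did not pass, as given above. The other 9 were not tested, among them CEACAM5 with 0 and 1 counts in WT and 15 and 10 in HSF1-pLVX libraries. The direction in CEACAM6 was thus opposite to that of the PSG members, at a distance of 949430 bases from the nearest of them.

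Genes of the trophoblast, the usual site of PSG expression, were listed to see what accompanied PSG RNA in these cells. Of 45 genes 22 passed the filter, 12 of which fell and 6 rose in edgeR (54.5 and 27.3%, against 32.7 and 32.5% of all tested genes). The median log2 fold change was -0.64, against 0.02 over all tested genes. Falls of at least 2-fold among well counted genes were led by VGLL1, a cofactor of TEAD factors, and by the transcription factors OVOL1, GATA2 and GATA3. VGLL1 was 46.99 and 41.55 CPM in WT and 5.736 and 4.027 CPM in HSF1-pLVX libraries, with a log2FC of -3.18 ± 0.138. OVOL1 had a log2FC of -3.08 ± 0.15, GATA2 of -2.52 ± 0.199 and GATA3 of -2.29 ± 0.109. HSD3B1, a steroid synthesis enzyme known from placenta, had 47 and 40 counts in WT libraries and 0 in both HSF1-pLVX libraries, and is named here after its values were seen. PGF, the placental growth factor, and TFPI2, a protease inhibitor, moved the other way, with log2FC of 3.26 ± 0.155 and 2.0 ± 0.118. In DESeq2's Wald test and in the other alternatives with all libraries the adjusted p of VGLL1, OVOL1, GATA2, GATA3, PGF and TFPI2 was at most 2.49e-06.

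Several of these factors are also made by mammary epithelium. Hormone and fusion genes of trophoblast were at low counts or 0. Of 9 markers listed as defining, CGA, CSH1, CSH2, GCM1, CYP19A1 and HLA-G had 0 counts in all 4 libraries, ERVW-1 between 6 and 16 counts, and CGB3 and CGB5 at most 5. The summed level of the 9 was 0.6925 and 0.3767 CPM in WT and 0.8365 and 0.7047 CPM in HSF1-pLVX libraries. Outside these 9, the hormone gene CGB7 had 30 and 38 counts in WT and 83 and 62 in HSF1-pLVX libraries (1.598 and 2.045 against 3.306 and 3.121 CPM), more than the 9 together, with a log2FC of 0.82 ± 0.281 (edgeR adjusted p = 0.006). CGB8 had 13 and 5 counts against 1 and 0, and ERVV-1, an envelope gene related to the fusion genes, 9 and 9 against 0 and 0, and neither was tested. These 3 genes are named after their values were seen. CGB and CSH genes are near copies whose reads the counting could lose, and the MHC region that holds HLA-G is repeated on alternative contigs of the count table, so their values are uncertain. Of 9 fibroblast markers 3 passed the filter: COL1A1 did not pass the test, DCN rose and FAP fell. Their summed level was 199.3 and 227.2 CPM in WT and 59.87 and 48.93 CPM in HSF1-pLVX libraries, of which FAP was the largest part, and COL1A2, COL3A1, LUM and THY1 had at most 2 counts in any library. The part of these markers in the PSG result was not tested.

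Factors reported at PSG promoters were then followed. Of 11 listed, 10 passed the filter, 2 of which fell and 4 rose in edgeR (20.0 and 40.0%, against 32.7 and 32.5% of all tested genes), with a median log2FC of 0.16, against 0.02 over all tested genes. KLF6 was 546.1 and 765.5 CPM in WT and 204.3 and 214.7 CPM in HSF1-pLVX libraries, with a log2FC of -1.63 ± 0.135 (edgeR adjusted p = 3.81e-32). KLF4, a related zinc finger factor, was 77.72 and 110.7 CPM in WT and 37.04 and 43.39 CPM in HSF1-pLVX libraries, with a log2FC of -1.21 ± 0.104 (edgeR adjusted p = 3.5e-30). The WT libraries differed among themselves in both genes and did not overlap with the HSF1-pLVX libraries. Among the retinoid receptors, RXRA rose from 90.67 and 76.59 to 244.3 and 251.5 CPM, with a log2FC of 1.57 ± 0.114. RARG rose with a log2FC of 0.89, and SP1 and SP3, which bind GC boxes, with 0.27 and 0.28. Their edgeR adjusted p-values, 0.0166 for SP1 and 0.0111 for SP3, passed the threshold, and those from DESeq2's Wald test and from edgeR without the filter on low counts did not. GABPA, GABPB1, GABPB2 and RARA did not pass the test. RXRB had between 0 and 1 counts per library and lies in the MHC region, where the count table also holds alternative contigs.

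Last came genes linked to PSG proteins outside the cell: the TGF-β ligands, the LTBP gene family, integrins, tetraspanins, galectin-1 and proteoglycans. All 19 passed the filter, and 8 fell and 7 rose in edgeR (42.1 and 36.8%, against 32.7 and 32.5% of all tested genes), with a median log2FC of -0.02. TGFB2 was 72.34 and 77.5 CPM in WT and 2.549 and 1.51 CPM in HSF1-pLVX libraries, with a log2FC of -5.17 ± 0.149 and a level of 2.79% of WT (2.25 to 3.43%). TGFB1, another of the TGF-β ligands, was 83.42 and 74.6 CPM in WT and 72.89 and 83.66 CPM in HSF1-pLVX libraries, so that the groups overlapped (edgeR adjusted p = 0.90). Of the LTBP genes, LTBP2 fell and LTBP4 rose, with log2FC of -1.18 ± 0.115 and 1.54 ± 0.109. LTBP1 also fell, with -0.96 ± 0.137 (edgeR adjusted p = 9.4e-12), and LTBP3 rose, with 0.41 ± 0.126 (edgeR adjusted p = 0.00222).

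The tetraspanin CD9, receptor of a mouse PSG protein, was 355.0 and 383.2 CPM in WT and 129.9 and 126.2 CPM in HSF1-pLVX libraries (log2FC -1.53 ± 0.121). The related CD151 fell with a log2FC of -1.24 ± 0.144. The subunits of the fibronectin receptor moved apart, with log2FC of 0.66 ± 0.123 for ITGA5 (edgeR adjusted p = 2.43e-07) and -0.71 ± 0.157 for ITGB1 (1.83e-05). LGALS1, galectin-1, rose with a log2FC of 0.51 ± 0.129 (edgeR adjusted p = 0.000178). Among the syndecans SDC1 and SDC3 rose, SDC2 fell at between 5 and 22 counts per library, and SDC4 did not pass.

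**Figure D5:**
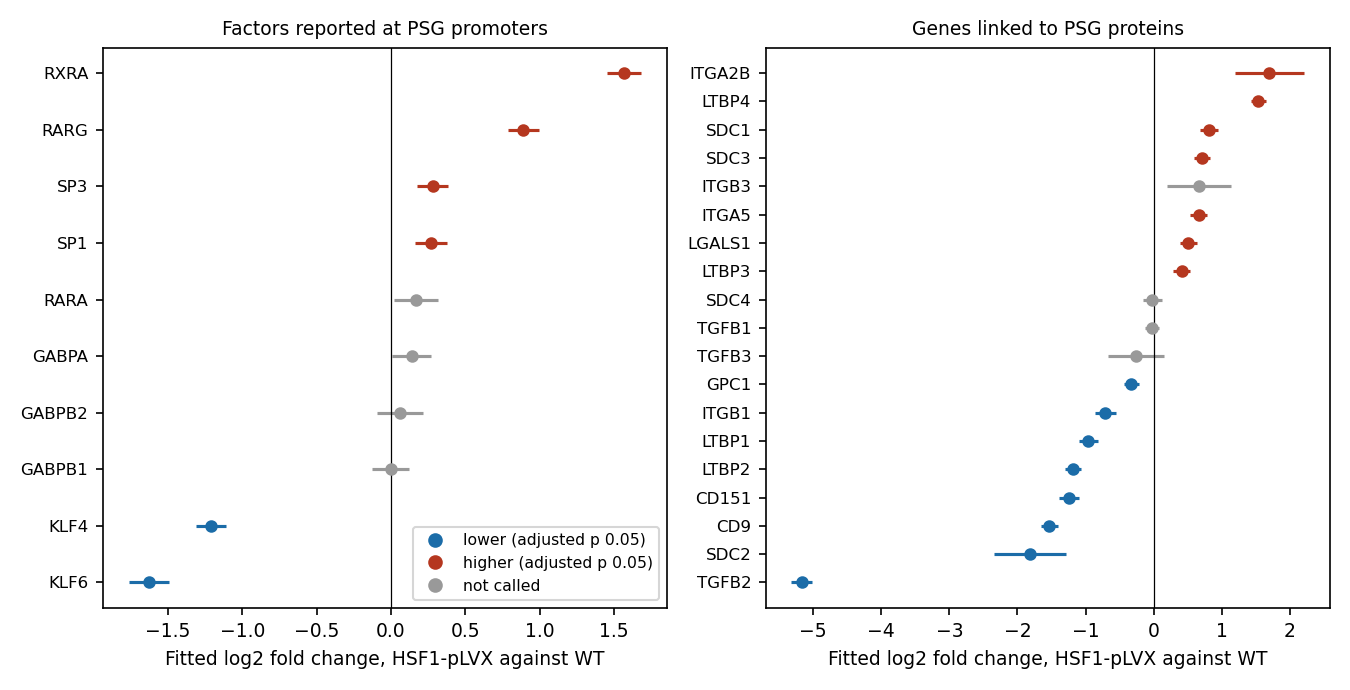
Fitted log2 fold change of HSF1-pLVX against WT cells for the tested factors reported at PSG promoters (left) and genes linked to PSG proteins (right). Bars show the approximate SE derived from the test, and colors the call at an adjusted p of 0.05. KLF6 (-1.63), KLF4 (-1.21) and TGFB2 (-5.17) lie at the low end and RXRA (1.57) and LTBP4 (1.54) near the high end.

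The genes most like the summed family over the 4 libraries, by Euclidean distance of log2(CPM + 0.5), were GJA5 (distance 0.914), MFAP5 (1.77), PDGFB (2.02), SEMA7A (2.21) and CPA4 (2.28). Likeness here means a similar WT level and a similar fall, and these genes are given as a description, with no test. GJA5, which encodes the gap junction protein connexin 40, was 202.6 and 195.7 CPM in WT and 3.266 and 1.309 CPM in HSF1-pLVX libraries. CPA4, a carboxypeptidase, fell further than the family, from 111.6 and 123.1 to 0.956 and 0.755 CPM. PDGFB, a growth factor, and SEMA7A, a membrane-anchored semaphorin, fell less, to between 3.574 and 8.166 CPM in HSF1-pLVX libraries. The likeness of the 5 genes lies mostly in the group difference, since each group has 2 libraries.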

How the data were processed

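RNA-seq of 2 WT and 2 HSF1-pLVX MCF10A libraries was used. The authors deposited raw counts per gene of GENCODE release 26. Per the submitters' processing notes, paired-end reads were aligned to hg38 with HISAT2 2.0.5, handled with SAMtools 1.13 and counted with featureCounts 1.6.5, and strand, overlap and multi-mapping settings are not given in the sources used here. The authors also deposited log2-like normalized values from DESeq2 1.32.0, which entered only the ratio limit of the study. Groups and replicate numbers were taken from the sample titles.

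Symbols came from GENCODE release 44. The test was edgeR's quasi-likelihood test (version 4.0.16, R 4.3.3, TMM, filterByExpr defaults). Replicate number was a block, following the ratios within replicates of the study, with Benjamini-Hochberg adjustment over 15830 genes and a threshold of 0.05. DESeq2 1.42.0 was an alternative. Same-numbered deviations from the group means had a correlation of -0.0147, so the numbers were not shown to pair the libraries. The blocked fit estimated infinite prior degrees of freedom (11.9 without the block), so its very small p-values rest on a spread shared between genes. On simulated counts with 200 changed genes, 82% of 2-fold and 96.7% of 4-fold changes were recovered, with 5.63% of calls false. The simulation gave all genes the same dispersion and no replicate effect, so it does not give the share of false calls in the real data. Intervals (exact binomial, SciPy 1.17.1) and the floor of 3 counts cover counting error only.

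The members and lists were chosen with earlier results of these data known. Named genes were all members, other PSG loci, HSF1, the 3 nearest tested genes on each side and any inside, the 5 genes of most similar pattern, and of each list up to 4 genes per direction beyond 2-fold with 50 counts or more in both libraries of the group with the higher level. Others are named for their role in the list and were chosen after their values were seen.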

Additional observations from a re-analysis of the deposited data

How the results depend on the processing

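The summed PSG level had a log2 ratio of -6.72, and of -6.66 with library size as the only normalization. It was -8.46 without PSG4 and between -6.78 and -6.68 with each library left out. The share of PSG4 in WT cells was 51.0% when counts were taken per kb of exon, against 60.9%. Under DESeq2's Wald test, 3318 genes rose over the whole table against 5138, 9 genes around the cluster fell against 15, 1 CEACAM gene rose against 2, and 2 promoter factors rose against 4. The cause was not tested. Also 2 promoter factors rose without the filter on low counts, and between 2 and 4 with each library left out, where a lone library is assumed to vary like the other group. The window set the number of genes around the cluster. Within 0.5 Mb 12 of 28 tested genes fell and 4 rose (42.9 and 14.3%). Within 2 Mb 26 of 95 fell and 27 rose (27.4 and 28.4%). Over all tested genes 32.7% fell and 32.5% rose. Leaving out WT replicate 2 or HSF1-pLVX replicate 1 gave the 2 promoter factors. Fitted log2 fold changes of the tested members moved by more than the spread between replicates in 7 of 35 values with all libraries and in 12 of 26 with a library left out, and no result was reversed. Without WT replicate 1 or without WT replicate 2, PSG7 no longer passed the filter on low counts. Without the replicate block, 5253 genes fell and 5175 rose over the whole table, against 5171 and 5138, 16 genes around the cluster fell and 15 rose, against 15 and 14, and no call changed among the CEACAM, trophoblast, promoter factor, partner and marker lists. Depth limits PSG3, PSG8 and PSG11, which had at most 14 counts over both WT libraries.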
